A study of Mus musculus with 2 samples.

Results

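The regulators of multiciliated cell fate examined here are 10 genes, Foxj1, Mcidas, Gmnc, Ccno, Rfx1, Rfx2, Rfx3, Myb, Trp73 and E2f4, out of 21951 protein-coding genes of the GENCODE M21 annotation. They were listed by symbol for their known role, and all 10 were found. The listing rule used no measured value, but earlier results of these data were known when the genes were chosen. Open chromatin was measured by DNase-seq, in which DNase I cuts accessible DNA in nuclei and the cut ends are sequenced. The only group was whole lung of male B6CASTF1/J mice, first-generation hybrids of C57BL/6J and CAST/EiJ, at 14 days of age, with no treatment named, in 2 libraries. Replicate 2 was a pool of 3 males, no pool was named for replicate 1, and both carried the same donor record, so it is not known whether they share animals. With 1 group there was no contrast to test, and each value below is given for both libraries.

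Multiciliated cells line the airways and move mucus with bundles of motile cilia. A cell that leaves Notch signalling turns on Gmnc (GEMC1) and then Mcidas (multicilin), coiled-coil relatives of geminin that do not bind DNA by themselves and work with E2F4 or E2F5 and a DP partner. This switch raises Ccno, which is needed to make many centrioles, together with Myb, Trp73 and Foxj1. FOXJ1, a forkhead factor, and RFX factors, which bind X-boxes, then turn on the genes of the motile axoneme.

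Several sequences carry the observations described below. The first is the strongest promoter peak of Ccno in replicate 1 (chr13:112987561-112987820, plus strand, mm10), with the RFX site GTTGCCA in capitals because a footprint lay on it in both libraries. The second is the RefSeq promoter window of Mcidas (chr13:112993618-112993917, plus strand, GRCm38.p6), with the same site in capitals. The third is the strongest promoter peak of Rfx2 in replicate 1 (chr17:56831081-56831380, minus strand), with the MYB core CNGTTG and the SP box GGGGCGGGG, on either strand, in capitals. The next pair are intron peaks of Rfx2 at the same coordinates in both libraries (chr17:56814441-56814600 and chr17:56810321-56810520, minus strand), with an inverted GTTGC repeat (GTTGC, any 3 bases, GCAAC) and GTTGCCA, on either strand, in capitals. The last is the RefSeq window at the outer start of Trp73 (chr4:154139826-154140125, minus strand), shown in lower case because it held none of the motifs searched and no peak. All coordinates are mm10. Peaks were read from the GRCm38 reference, which shares them and does not show CAST/EiJ alleles, and the sequences of Mcidas and Trp73 were chosen after their values were seen.
Ccno promoter peak: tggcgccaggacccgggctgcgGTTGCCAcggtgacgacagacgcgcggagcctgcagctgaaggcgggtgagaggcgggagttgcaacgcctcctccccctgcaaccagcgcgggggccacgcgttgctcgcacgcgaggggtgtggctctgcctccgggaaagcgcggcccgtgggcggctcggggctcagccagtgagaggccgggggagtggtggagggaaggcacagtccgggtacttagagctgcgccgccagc
Mcidas promoter window: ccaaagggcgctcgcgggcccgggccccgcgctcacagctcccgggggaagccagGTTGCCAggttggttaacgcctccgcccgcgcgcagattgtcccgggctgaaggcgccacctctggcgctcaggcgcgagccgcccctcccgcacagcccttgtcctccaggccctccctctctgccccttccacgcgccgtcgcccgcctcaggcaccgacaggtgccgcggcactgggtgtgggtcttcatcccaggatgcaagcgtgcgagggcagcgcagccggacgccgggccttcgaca
Rfx2 promoter peak: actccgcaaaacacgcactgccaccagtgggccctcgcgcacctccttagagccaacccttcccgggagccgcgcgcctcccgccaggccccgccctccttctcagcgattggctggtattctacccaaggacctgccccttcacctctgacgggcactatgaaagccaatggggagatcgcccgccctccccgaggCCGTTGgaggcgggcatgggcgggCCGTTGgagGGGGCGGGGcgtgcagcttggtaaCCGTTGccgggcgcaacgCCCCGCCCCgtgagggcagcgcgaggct
Rfx2 nearer intron peak: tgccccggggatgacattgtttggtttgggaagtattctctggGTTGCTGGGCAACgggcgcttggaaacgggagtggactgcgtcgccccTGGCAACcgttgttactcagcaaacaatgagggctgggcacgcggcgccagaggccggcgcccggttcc
Rfx2 farther intron peak: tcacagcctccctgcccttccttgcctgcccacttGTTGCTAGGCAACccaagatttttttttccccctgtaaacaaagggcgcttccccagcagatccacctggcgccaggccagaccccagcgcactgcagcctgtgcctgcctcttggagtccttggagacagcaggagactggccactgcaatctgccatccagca
Trp73 outer promoter window: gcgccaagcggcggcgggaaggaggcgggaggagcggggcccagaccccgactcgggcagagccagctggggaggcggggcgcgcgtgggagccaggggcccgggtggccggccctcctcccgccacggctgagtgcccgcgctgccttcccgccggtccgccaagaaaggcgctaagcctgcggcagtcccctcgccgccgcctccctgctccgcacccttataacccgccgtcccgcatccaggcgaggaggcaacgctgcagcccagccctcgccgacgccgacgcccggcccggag

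The libraries held 94786 and 77403 peaks over 17.5 and 14.5 Mb, and 326313 and 252174 footprints, short stretches protected from cutting. Of these peaks, 73.6% in replicate 1 and 89.8% in replicate 2 overlapped a peak of the other library. Each peak has a score that the authors assigned, and its percentile among all peaks of its own library is used below. A promoter is called open when a peak lies within 1 kb of any annotated transcript start of the gene. The lung label was checked on markers: 12 of the 14 multiciliated cell genes in the annotation and 8 of 9 lung epithelial genes were open at the promoter in both libraries, while neither of 2 liver genes and none of 4 germ cell genes were, beside 63.5% of all protein-coding genes. The median percentile of those open in both was 72.3 and 68.1 for the multiciliated list and 69.0 and 71.5 for the lung epithelial list, below the 90.7 and 89.9 of all protein-coding genes open in both. Scgb1a1, the secretoglobin of club cells, was the lung epithelial gene without a promoter peak, and 3 of 3 brain genes (Gfap, Snap25 and Rbfox3) were open too, so an open promoter in these data does not mark a cell type. In whole tissue, fewer cells with an open site and a weaker opening per cell cannot be told apart.

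The regulators ranged from the top 1% of peak scores to no promoter peak. Of the 10 regulators, 9 were open at the promoter in replicate 1 and 8 in replicate 2, and those 8 were open in both. Among all protein-coding genes the shares were 66.6% in replicate 1, 64.1% in replicate 2 and 63.5% in both (95% Clopper-Pearson interval 62.9 to 64.2%, which covers the counting of genes only). Gmnc was open in replicate 1 only and Trp73 in neither, as were 32.9% of all protein-coding genes. In both libraries, 6 regulators (Foxj1, Ccno, Rfx1, Rfx2, Rfx3 and E2f4) had a promoter peak in the top 10% of scores, against 30% of all protein-coding genes. The median percentile of the 8 regulators open in both was 95.0 in replicate 1 and 94.3 in replicate 2, beside 90.7 and 89.9 over all protein-coding genes open in both. Rfx1 and Rfx2 had the highest percentiles in both libraries, and of the 8 open in both, Mcidas and Myb had the lowest.

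**Figure D1:**
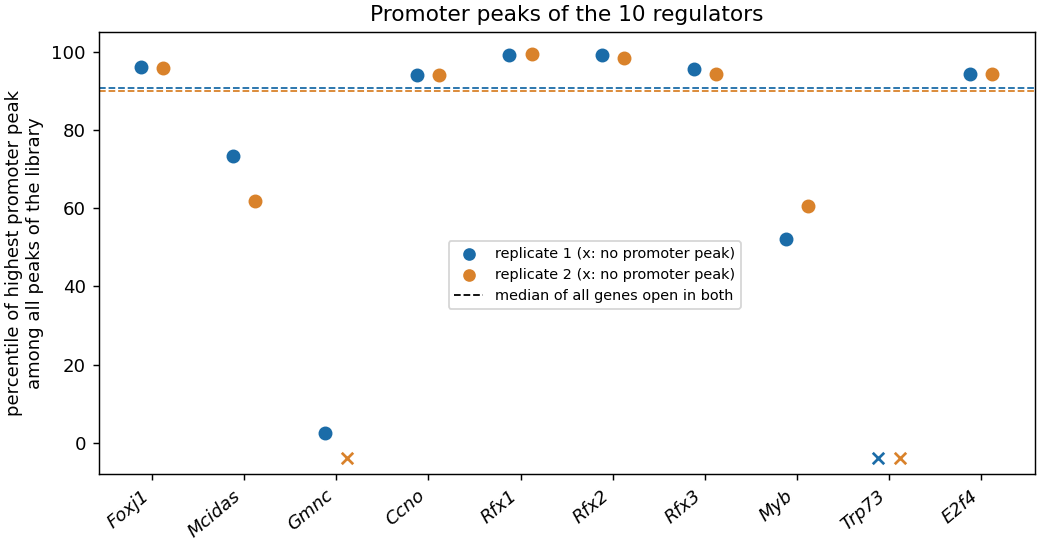
Percentile of the highest promoter peak of each regulator among all peaks of its library (y axis), replicate 1 in blue and replicate 2 in orange; a cross marks a gene with no promoter peak and dashed lines the median of all protein-coding genes open in both libraries. Rfx1, Rfx2, Foxj1, Rfx3, Ccno and E2f4 sit above both lines, Mcidas and Myb below them, Gmnc near 0 in replicate 1, and Trp73 has no point.

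Gmnc, at the top of the cascade, was open in 1 library at a very low score. It had 1 promoter peak, in replicate 1, at percentile 2.44 and 86 bp wide (chr16:26968075-26968160), in an exon outside the coding sequence. It was centred 128 bp downstream of the inner start of transcript Gmnc-204, and the other 3 starts of Gmnc had no peak within 1 kb in either library. In replicate 2 the nearest peak to any Gmnc start was 148536 bp away. The lists of bases at a false discovery rate (FDR) of 0.05 or below held 306 bases within 1 kb of the inner start in replicate 1, with a lowest FDR of 0.00016, and 0 bases near any Gmnc start in replicate 2, as for 30.8% of all protein-coding genes in that library. Gmnc also had no distal peak, that is no other peak in the gene model or 50 kb on each side, in either library, although 86.6% and 85.1% of all protein-coding genes had at least 1. Of the genes in its length decile, 3.46% in replicate 1 and 4.46% in replicate 2 had none, and the medians were 9 and 7 distal peaks.

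Mcidas, which lies directly downstream of Ccno on the same strand, was open in both libraries at middling rank. Its highest peak stood at percentile 73.4 in replicate 1 (chr13:112994341-112994520, score 2.52) and 61.7 in replicate 2 (chr13:112994337-112994506, score 1.79). That peak was centred 585 and 576 bp downstream of the start, inside a coding exon, and held 4 footprints in each library, 3 of which overlapped one of the other library. Just upstream of the start only a 60 bp peak of replicate 1 was called, centred at -175 bp and at percentile 15.5. The single footprint of that small peak (chr13:112993674-112993682) overlapped the GTTGCCA site printed above, whose first base is at -195 bp of the RefSeq start, and none was called there in replicate 2. Among all protein-coding genes open in each library, Mcidas stood at percentile 23.9 and 16.9.

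Ccno, the cyclin O gene, had a stronger promoter than its neighbour. Its 1 promoter peak lay at percentile 93.9 in replicate 1 (score 8.53) and 94.1 in replicate 2 (score 9.58) and ended just past the start. It held 3 and 5 footprints, and all 3 of replicate 1 overlapped one of replicate 2. The most upstream of these lay on the site GTTGCCA, centred at -212 bp from the start in replicate 1 and -214 bp in replicate 2. The 2 footprints are printed in plus strand letters, with matches to GTTGCCA and CNGTTG in capitals.
Ccno footprint, replicate 1: gGTTGCCAcggtgacga
Ccno footprint, replicate 2: gCGGTTGCCAcggtgac
GTTGCCA occurred, on either strand, in 4.18% of all 21263 RefSeq promoter windows of protein-coding genes, and wholly inside 0.386% of all footprints in replicate 1 and 0.381% in replicate 2. The full X-box (GTTNCC, any 2 bases, GGNAAC) was not found in the promoter windows of Ccno or Mcidas, which says only that these letters are not there.

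The peaks around Ccno and Mcidas run on into Cdc20b, a gene of the deuterosome, where the extra centrioles form. A peak in a Ccno coding exon (chr13:112989641-112989820) stood at percentiles 57.4 and 53.3. The peak between Mcidas and Cdc20b (chr13:113000661-113000840), 6.91 kb past the Mcidas start, stood at 58.6 and 63.7. The peak over the Cdc20b start itself stood at 56.4 and 53.3. The highest peak of the locus after the Ccno promoter lay inside Cdc20b, at 82.9 and 77.3. It was within 1 kb of the Cdc20b start, so it also counts as a Cdc20b promoter peak. That peak (chr13:113036021-113036160 in replicate 1) overlapped the RefSeq hairpin of Mir449c (chr13:113035983-113036091, plus strand) by 71 bp in replicate 1 and 91 bp in replicate 2. The miR-449 family, expressed in multiciliated cells, is known to repress Notch pathway genes and the centriole cap gene Ccp110. The mature 5p strand of that hairpin (chr13:113036008-113036028) is printed from RefSeq with its seed, bases 2 to 8, in capitals. The replicate 2 peak covered it whole, while the replicate 1 peak began past the seed.
mmu-miR-449c-5p: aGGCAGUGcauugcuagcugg
The hairpin of Mir449a, 1 of the 2 family members with a RefSeq entry within 50 kb of Ccno and Mcidas, overlapped no peak.

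**Figure D2:**
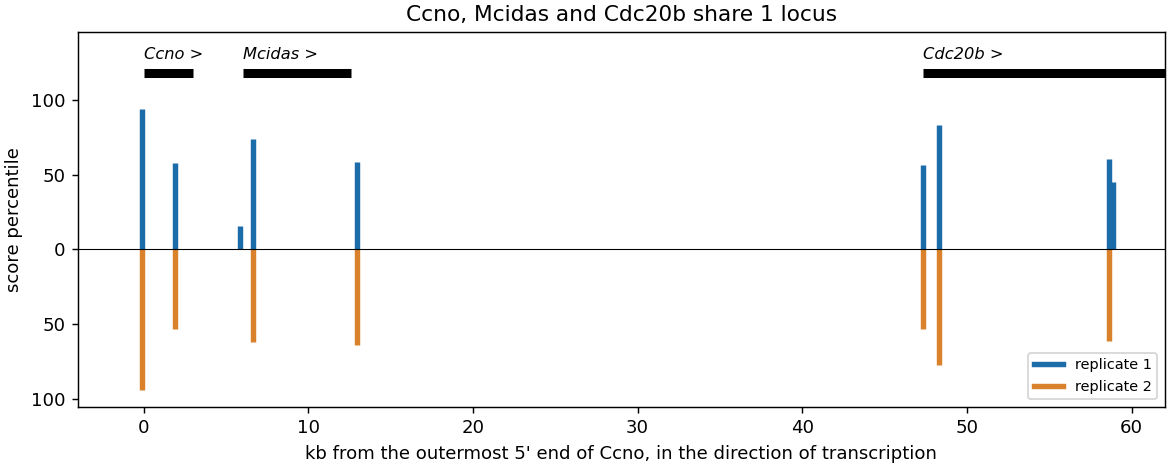
Peaks at the locus of Ccno, Mcidas and Cdc20b, as kb from the Ccno start along the plus strand (x axis) and score percentile (y axis), replicate 1 upward in blue and replicate 2 downward in orange; black bars are the gene models, and the Cdc20b bar runs beyond the right edge. The Ccno promoter peak is the tallest in both libraries, and the peak over Mir449c, 48.3 kb on, is the next tallest.

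E2f4, the DNA-binding partner of GEMC1 and multicilin, also serves in the cell cycle of other cells. Its promoter peak (chr8:105297561-105297740) had the same coordinates in both libraries, centred 13 bp before the start, at percentile 94.4 in replicate 1 and 94.3 in replicate 2. It held 3 footprints in replicate 1 and 4 in replicate 2, and all of them overlapped one of the other library. An inner start of a retained-intron transcript had no peak within 1 kb in either library. E2f4 had the most distal peaks of the 10, 28 and 23, more than 98.9% of the genes of its length decile in each library, whose medians were 6 and 5. Of these, 18 in replicate 1 and 13 in replicate 2 lay within 1 kb of a start of another gene, such as Lrrc29, Tmem208, Fhod1 and Slc9a5. The highest of the other 10 was centred at -6.55 kb (chr8:105291041-105291180), inside Exoc3l, at percentiles 98.1 and 90.2, above and below the E2f4 promoter in turn.

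Myb, which acts early and briefly in multiciliated cells and is best known in blood progenitors, had a modest promoter peak over its outer start. It stood at percentile 52.1 in replicate 1 (chr10:21160901-21161180) and 60.5 in replicate 2 (chr10:21160941-21161140), centred 56 bp before the start in both. A second peak, at 18.5 and centred 999 bp past an inner start, was called in replicate 1 only. The 3 starts of retained-intron and processed transcripts further inside had no peak within 1 kb. Among its distal peaks, an intron peak 1.84 kb past the start (chr10:21159001-21159280 in replicate 1) stood at 56.4 in replicate 1 and was the highest in replicate 2, at 55.0. The highest in replicate 1, at 65.4 there and 46.9 in replicate 2 (chr10:21144981-21145140), lay over a coding exon and near the start of the gene Gm26577, and held a footprint with the CREB site TGACGTCA in both libraries. The minus-strand letters of that footprint are printed with the site in capitals.
Myb footprint, replicate 1: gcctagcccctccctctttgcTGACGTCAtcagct
Myb footprint, replicate 2: ctttgcTGACGTCAtcagct
TGACGTCA lay in 0.213% of all footprints of replicate 1 and 0.263% of replicate 2. Of 6 marker genes of blood progenitors and erythroid cells, Kit and Gfi1b were open in both libraries and 4 (Alas2, Gata1, Hbb-bt and Klf1) in neither; of 5 lymphoid markers, 2 (Lck and Cd3d) were open in both and 3 in neither. Their part in the Myb values was not tested.

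Trp73, whose TA isoforms start at an outer promoter and whose shorter isoforms start at an inner one, was the regulator with no promoter peak in either library. None of its 5 distinct starts had a peak within 1 kb. The nearest peak to the outer start was 2053 bp away, at percentiles 88.3 and 89.5 (chr4:154142261-154142440), and lay at the start of Wrap73, a neighbouring gene. Within 1 kb of Trp73 starts, replicate 1 listed 107 bases at an FDR of 0.05 or below, with a lowest value of 0.0283, and replicate 2 listed 0. In the larger deposited peak lists a promoter peak of Trp73 appeared in replicate 1 alone, at percentile 27.8. The larger lists left 28.5% of all protein-coding genes without a promoter peak in either library. Trp73 nevertheless lay among open sites: it had 22 and 19 distal peaks, more than 95.2% and 96.1% of the genes of its length decile, whose medians were 9 and 7. Of these, 13 and 10 were away from starts of other genes, more than 86.0% and 83.2% of that decile by the same count. Only 4 of the distal peaks in each library lay inside Trp73. Inside the gene the highest (chr4:154105361-154105540), 34.8 kb past the outer start, stood at 72.3 in replicate 1 and 38.7 in replicate 2, and 1 of its footprints in each library carried the CTCF core (CC, any 3 bases, AGGGGGC).
Trp73 intron footprint, replicate 1: tggttCCAGCAGGGGGCgccctacacacg
Trp73 intron footprint, replicate 2: ttCCAGCAGGGGGCgccctacaca
That core lay in 0.99% of all footprints of replicate 1 and 1.01% of replicate 2. The strongest distal peak of Trp73, 20.5 kb upstream at 98.1 and 96.8, was near the start of Tprgl.

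The outer start of Trp73 lay in CpG-rich sequence and that of Gmnc did not. Of the 10 regulators, 8 had at least 1 RefSeq promoter window, which covers 250 bases before to 50 after the start, and 10 windows matched. CpG content is given as observed over expected, and its median over all protein-coding windows was 0.567. The windows of Mcidas (0.855), Ccno (0.861), Rfx1 (0.931), Rfx2 (0.906), Rfx3 (1.02) and Myb (0.952) were all above it, as was the outer window of Trp73 at 0.864. In the CpG decile of the outer Trp73 window, 95.2% of windows in replicate 1 and 92.9% in replicate 2 had a peak within 1 kb of their start, and the Trp73 window did not. The inner window of Trp73 (0.242) fell in a decile where 26.1% and 23.8% had a peak. The outer window of Gmnc, at 0.164, fell in a decile where 15.7% and 13.4% had one, and its inner window, at 0.618, in one with 87.4% and 84.8%. The inner Gmnc window had its peak in replicate 1 only.

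**Figure D3:**
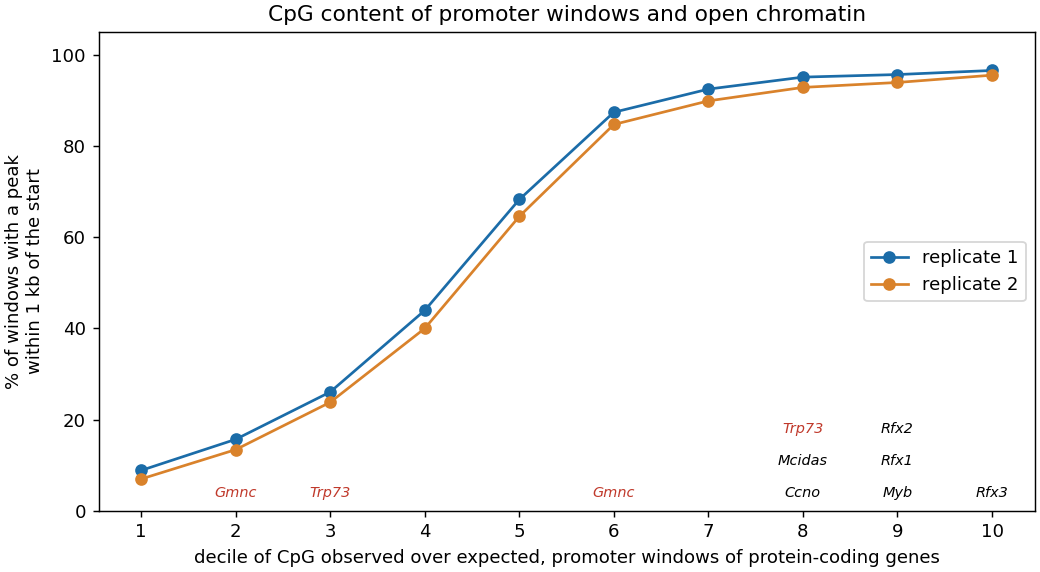
Share of RefSeq promoter windows of protein-coding genes with a peak within 1 kb of the start (y axis, percent) by decile of CpG observed over expected (x axis), replicate 1 in blue and replicate 2 in orange, with the regulators named under their decile. Trp73 and Gmnc, in red, have 2 windows each; the outer Trp73 window in decile 8 has no peak although over 90% of its decile has one.

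Foxj1, the forkhead regulator of the motile cilium program, was open at its 1 annotated start in both libraries. Its main peak (chr11:116335361-116335520, the same in both) was centred 41 bp before the start, at percentile 96.2 in replicate 1 (score 10.6) and 95.8 in replicate 2 (score 11.5). A weaker peak about 0.45 kb upstream stood at 64.5 and 52.7. A footprint over the SP box, centred 27 bp before the start, had the same bounds in both libraries. Among all open protein-coding genes Foxj1 stood at 75.7 and 75.8. It had 7 distal peaks in each library, and 5 of the 7 were shared, close to the medians of 6 and 5 for genes of its length. The strongest without another gene's start were a peak 32.9 kb upstream inside Rnf157 (91.2 and 85.5) and one 16.2 kb downstream of the start (95.0 and 78.3) whose footprint held the CTCF core in both libraries. A peak at the start of Exoc7 and Gm26730, 28.6 kb downstream, stood at 95.8 and 91.6.

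The RFX genes, whose products bind X-boxes at ciliary genes, were all open in both libraries, Rfx1 and Rfx2 with the highest promoter percentiles of the 10, and their surroundings differed. RFX1 is made in many cell types, while RFX2 and RFX3 are best known from ciliated cells. Rfx1 stood at percentile 99.1 in replicate 1 (rank 806 from the top) and 99.5 in replicate 2 (rank 395), with a second peak about 0.53 kb inside the gene at 98.7 and 96.1. Both peaks lay within 1 kb of the start of C330011M18Rik, an antisense noncoding RNA gene, and DNase-seq does not tell which start a shared peak serves. A footprint over CCAAT, centred 87 and 89 bp before the start, was called in both libraries. CCAAT is common, with a match in 38.2% of all promoter windows. It lay in 1.36% of all footprints of replicate 1 and 1.37% of replicate 2. The most open distal peaks of Rfx1 (98.7 and 98.4) were at the start of Dcaf15, 38.0 kb past the Rfx1 start. A footprint with the full X-box lay in the adjacent peak of replicate 1, at 96.6, and within the strongest peak of replicate 2. The plus strand letters are printed with the X-box in capitals.
Dcaf15 footprint, replicate 1: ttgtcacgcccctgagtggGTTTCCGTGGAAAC
Dcaf15 footprint, replicate 2: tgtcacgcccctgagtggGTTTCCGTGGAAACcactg
In the letters searched (GTTNCC, any 2 bases, GGNAAC), the X-box lay wholly inside 1 footprint of the regulators in each library, this one. It lay inside 0.0337% of all footprints in replicate 1 and 0.042% in replicate 2. Sites with other letters or spacing do not match this form and are not counted.

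Rfx2 had a single broad promoter peak that ended 68 bp before the outer start in replicate 1 and 88 bp in replicate 2. It ranked 775 from the top in replicate 1 and 1204 in replicate 2, and at percentiles 94.5 and 90.6 among open protein-coding genes. Its promoter window held 3 copies of CCGTTG and 2 SP boxes, and the footprint over 1 of each, CCGTTGgagGGGGCGGGGcgtgc in replicate 1, was called in both libraries. CNGTTG is common, with a match in 34.1% of all promoter windows, while GGGGCGGGG was in 15.4%. The peak held 7 and 5 footprints, of which 6 and 5 overlapped one of the other library.

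Inside Rfx2, 3 intron peaks were shared by both libraries. They lay 16.5, 20.6 and 22.3 kb past the start at percentiles 88.1, 91.0 and 83.5 in replicate 1 and 91.0, 84.6 and 75.8 in replicate 2. The first and the second of these each held the inverted GTTGC repeat under a footprint in both libraries. This repeat was added to the search after the sequences had been seen. It occurred in 0.12% of all peaks of replicate 1 and 0.138% of replicate 2 within 100 bases of the centre, and inside 0.0181% and 0.0226% of all footprints. The nearer peak also held TGGCAAC, the RFX site on the other strand, under a second footprint in both libraries. The minus-strand letters of these footprints in replicate 2 are printed below. Capitals mark the inverted repeat, GTTGCCA and the MYB core CNGTTG, on either strand, and MYB matches overlap the other motif in the nearer peak.
Rfx2 nearer intron, inverted repeat: ggGTTGCTGGGCAACGGgcgct
Rfx2 nearer intron, RFX site: actgcgtcgccccTGGCAACCGt
Rfx2 farther intron, inverted repeat: ttGTTGCTAGGCAACccaa
Of all 304 and 250 footprints of the regulators, 2 in each library held the inverted repeat, both of them in Rfx2. Rfx2 had 15 distal peaks in each library, 13 shared, more than 84.2% and 91.2% of the genes of its length decile.

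Rfx3, by contrast, had a strong promoter and few other peaks. Its main peak was centred at -434 bp from the outer start in replicate 1 and -424 bp in replicate 2, at percentiles 95.7 and 94.3, and 3 weaker peaks lay around it, the highest of them at 68.5 and 63.1. The bases at an FDR of 0.05 or below within 1 kb of its starts numbered 2297 and 2218, more than at any other regulator. That count covers the windows of all starts, and Rfx3 has 8 distinct starts while Foxj1 and Mcidas have 1 each. The span searched was therefore not equal between regulators. Of the 6 promoter footprints in each library, 6 in replicate 1 and 5 in replicate 2 were in the main peak. Starts of 3 shorter transcripts far inside the gene had no peak within 1 kb. The highest of its distal peaks stood at 47.3 and 26.6. Across a gene model of 249446 bp and 50 kb on each side it had 4 and 3, against medians of 10 and 8 for its length decile. Only 15.8% and 15.6% of that decile had fewer.

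**Figure D4:**
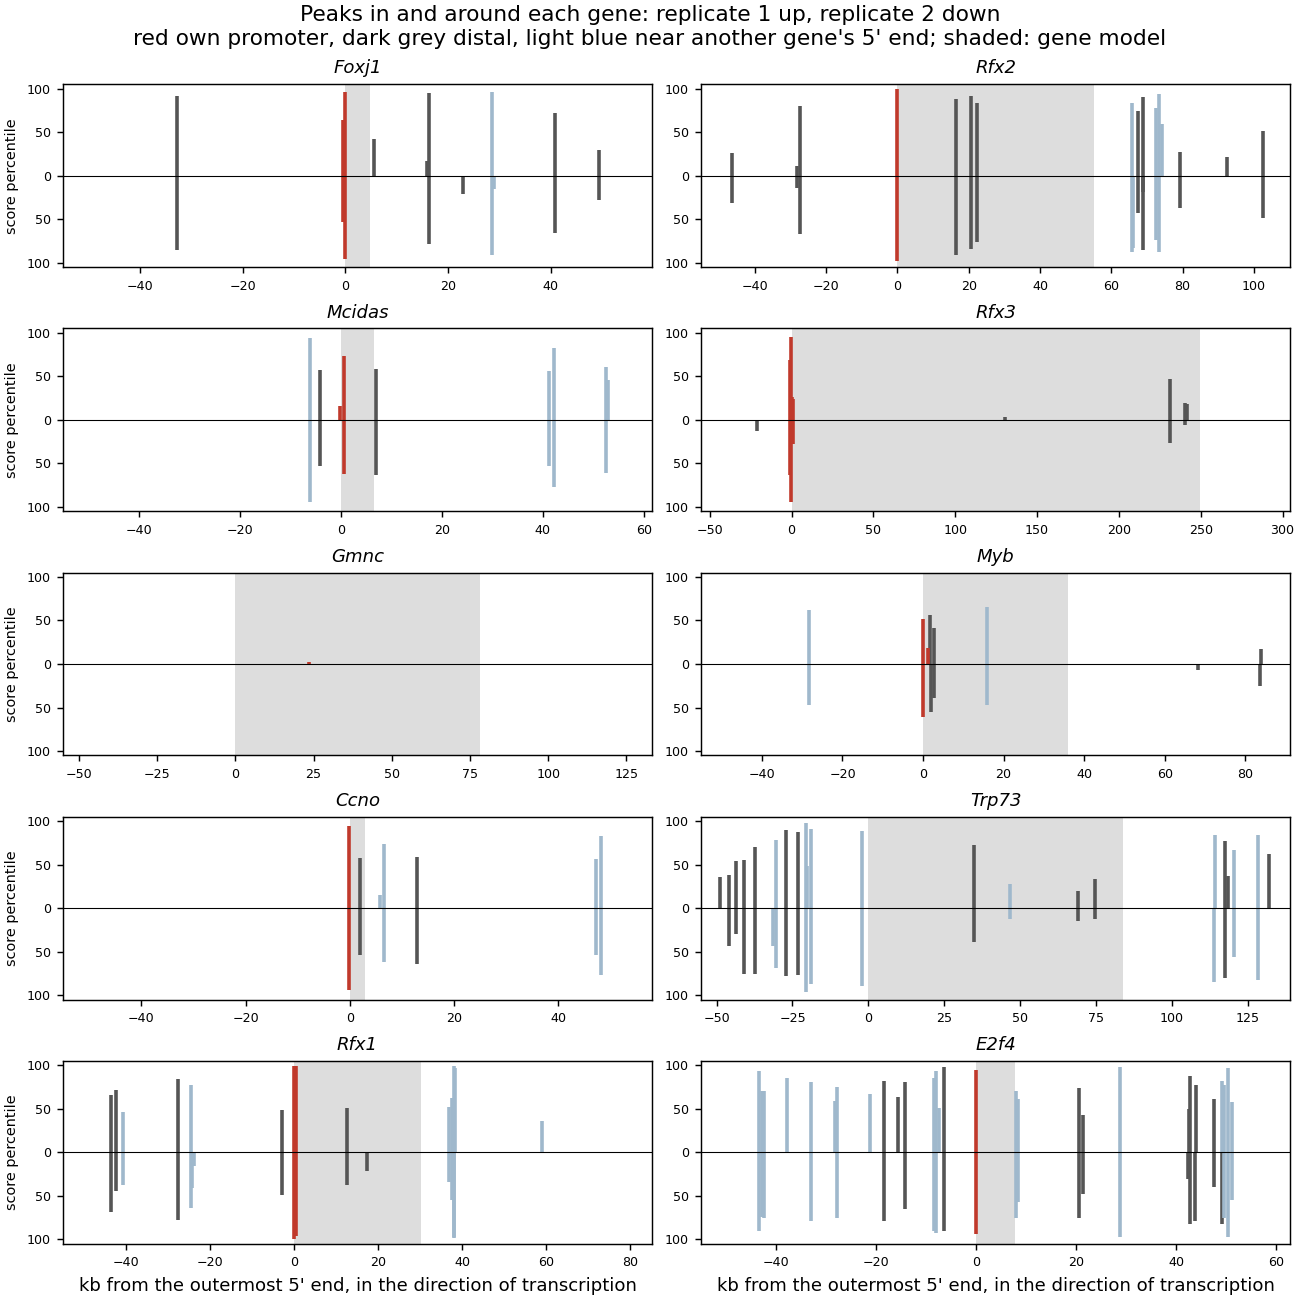
Peaks in and around each regulator, as kb from the outermost start in the direction of transcription (x axis) and score percentile (y axis), replicate 1 upward and replicate 2 downward; red marks own promoter peaks, dark grey distal peaks, light blue distal peaks near another gene's start, and shading the gene model. Gmnc has a single short line, Trp73 has no red line but many others, and Rfx2 has 3 tall lines inside the gene.

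Counted together, the regulators had 102 distinct distal peaks in replicate 1 and 94 in replicate 2, and 84 were shared, 82.4% and 89.4%. A peak counted for both Ccno and Mcidas was counted once. Away from the starts of other genes, the counts per regulator ran from 0 at Gmnc to 13 at Trp73 in replicate 1 and 11 at Rfx2 in replicate 2, beside medians of 4 and 3 over all protein-coding genes. Of the 10 regulators, 9 had at least 1 such peak in each library, beside 80.8% of all protein-coding genes with 1 in both. Ccno and Mcidas had 2 in both libraries, the same 2 peaks for both genes. Rfx1 had 5 and 6, and Myb had 3 and 4.

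**Figure D5:**
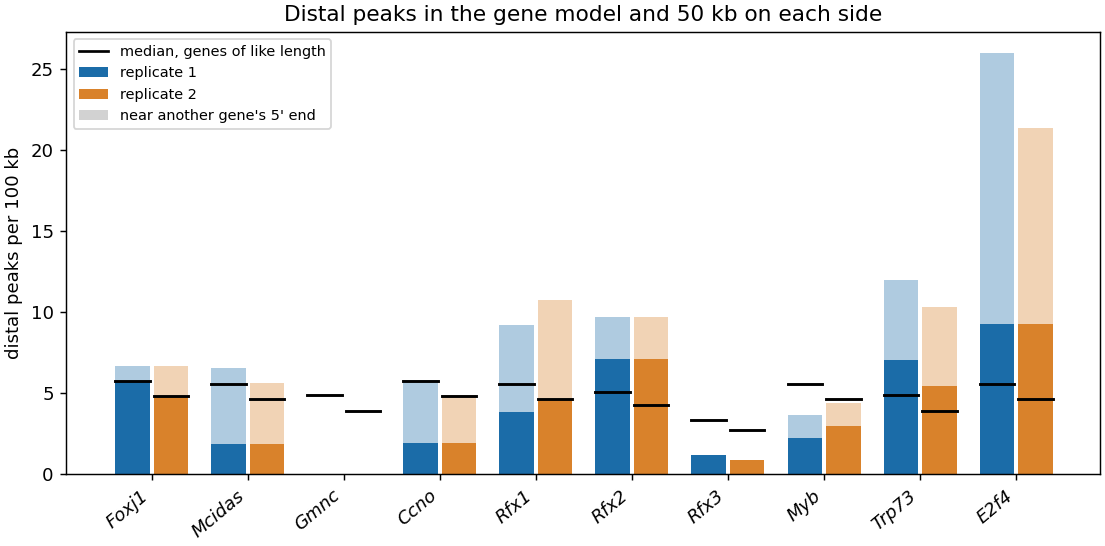
Distal peaks per 100 kb of gene model plus 50 kb on each side (y axis) for each regulator, replicate 1 in blue and replicate 2 in orange; the pale part of a bar is peaks within 1 kb of another gene's start, and black lines are the median of protein-coding genes of the same length decile. E2f4, Trp73, Rfx2 and Rfx1 lie furthest above their lines in both libraries, Gmnc has no bar, and Rfx3 lies below its lines.

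Footprints inside the regulators' promoter peaks recurred between libraries. Of 42 in replicate 1, 32 (76.2%) overlapped a footprint of replicate 2, and of 34 in replicate 2, 26 (76.5%) overlapped one of replicate 1. Over all footprints of the regulators, distal ones included, the shares were 64.8% and 70.4%. Over all footprints inside peaks they were 55.8% and 69.3%. These shares were not matched for peak score or for place at a promoter. Strong peaks held more footprints in general: the median was 4 in the top 10% of scores in each library and 2 over all peaks. No footprint of the regulators held the forkhead core TGTTTAC, the p53-family pair of CATG motifs 6 bases apart or the E2F site TTTCCCGC in either library, and these were rare in all footprints too, at 0.0285%, 0.00337% and 0.0257% in replicate 1. The other E2F form, TTTGGCGC, lay in 2 footprints of the regulators in replicate 1 and 1 in replicate 2, at the starts of other genes near Rfx1 and E2f4, beside 0.0585% and 0.0575% of all footprints (0.658% and 0.4% of the regulators' footprints).

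The pathway around the regulators was examined with 68 partner genes. Of these, 61 were open at the promoter in both libraries and 5 in neither, beside 63.5% and 32.9% of all protein-coding genes. All 9 genes of licensing and the cell cycle, a program that multiciliated cells reuse without dividing, were open in both, with Cdk1 (96.3 in each library), Cdt1 (94.3 and 93.3), a partner of geminin at origins, and Cdkn1a (94.8 and 92.3) highest. All 16 E2F and DREAM genes were open, led by E2f3 (98.5 and 99.5), Lin52 (96.3 and 97.4) and Lin37 (95.3 and 97.7). All 12 deuterosome and centriole genes were open, led by Cntrob (99.2 and 98.7), Sass6 (99.5 and 97.6) and Cep152 (97.0 and 99.1). Centriole genes that dividing cells also use made up these top values. Deup1, which builds the deuterosome, had the lowest of the list, at 36.6 and 22.7, but Ccdc78 of the same list stood at 96.9 and 95.4. Cdc20b stood at 82.9 and 77.3, by the peak over Mir449c described above. Median percentiles of the genes open in both libraries were 91.3 and 92.2 for licensing and the cell cycle, 92.9 and 90.4 for E2F and DREAM, and 96.0 and 95.6 for deuterosome and centriole, beside 90.7 and 89.9 over all protein-coding genes. Among 16 Notch genes, cofactors and other regulators, 14 were open in both, led by Rbpj (98.4 and 98.5), the DNA-binding factor of Notch signalling, Notch2 (97.1 and 95.7) and Hes6 (94.6 and 97.3). Their median was 88.9 and 86.8. Noto, a homeobox gene of the node, was open in neither.

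The relatives of the regulators split. Of 15 paralogs and RFX complex genes, 10 were open in both libraries and 4 in neither, beside 63.5% and 32.9% of all protein-coding genes. Those open in both had medians of 92.1 and 93.6. Rfxank (99.4 and 99.5), Trp53 (96.6 and 96.0) and Rfxap (97.0 and 95.1) were highest. Foxn4, Rfx4, Rfx6 and Rfx8 had no promoter peak in either library, while Rfx1, Rfx2 and Rfx3 were all in the top 10% in both. In the p53 family, Trp63, a factor of basal cells, had a promoter peak in replicate 1 only, at 6.80, and Trp73 had none. Among the multiciliated cell markers, Rsph1 (99.8 and 98.2), Dnaic1 (98.0 and 98.7) and Dynlrb2 (96.1 and 94.8) were highest of a list whose other open members ran lower, down to Pifo (21.5 and 41.7) and Tekt4 (49.1 and 37.1). Dnah5 and Tmem212 had no promoter peak in either library. All 4 genes of proliferating cells were open in both libraries.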

How the data were processed

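The data are DNase-seq of whole lung in 2 libraries of 1 group. The authors aligned reads to mm10, per the labels; no source used here names the aligner, the peak caller or the read depth, and reads of a B6 by CAST hybrid on a B6 reference may align unequally between alleles. Column 7 of the deposited peak lists was taken as a signal whose scaling the files do not state, so scores were ranked within a library by percentile. The authors called each library by itself and deposited 2 peak lists for each, of which the one with fewer peaks was used. The deposited footprint files carry one constant p-value threshold, 0.01, and the deposited FDR files list bases at an FDR of 0.05 or below (read as adjusted p-values).

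Transcript starts came from GENCODE M21, and all 42 member transcripts began with the bases of the GRCm38 genome at their coordinates. A promoter peak overlapped the window of 1 kb around any transcript start; a distal peak had its centre in the gene model or 50 kb on each side. A footprint counted when it lay wholly inside such a peak, and peaks or footprints were shared when they overlapped by at least 1 bp. Length deciles hold 10% of the protein-coding genes each. Python 3.11.15, numpy 2.4.6, scipy 1.17.1, pandas 2.3.3 and pysam 0.24.0 were used, and the assignment of peaks was checked on simulated peaks. Promoter and miRNA sequences are from RefSeq on GRCm38.p6.

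The members, partner lists and markers were chosen with earlier results of these data known. All members are named; of each partner list, the 3 genes highest by mean percentile and up to 3 without a peak are named, together with the genes whose starts lie near the peaks described. Rfx8, Klf1, Trp63, Deup1, Ccdc78, Cdc20b, Pifo, Tekt4 and Mir449c were named after their values were seen. No test was possible between groups; alternatives varied the window, starts, flanks, peak list, score limit, overlap and library.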

Additional observations from a re-analysis of the deposited data

How the results depend on the processing

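No paired analysis was possible because the 2 libraries form 1 group and no test was run. The count of regulators open in both libraries was 8 under every alternative run on both libraries but the window of 2500 bp, which gave 9. Trp73 counted in 2 libraries at that window, where the peak of the Wrap73 start falls inside it, and in 1 with the larger lists. Gmnc counted in 0 libraries with the outermost start only or the higher-scoring 50% of peaks. The median percentile of the open regulators, averaged over libraries, was 94.7 and moved to 96.5 with the larger lists. The share of all protein-coding genes open in both, 63.5%, moved to 66.6% at 2500 bp, 58.7% with the outermost start, 67.5% with the larger lists and 56.1% with the higher-scoring 50% of peaks. The 84 shared distal peaks became 39 with flanks of 20 kb, 131 with 100 kb, 14 in the gene body only and 45 without those near other starts. With the larger lists they became 110, with the higher-scoring 50% of peaks 58, and with overlap of at least 50% of both peaks 72. The mean of 277 footprints became 334.5 with the larger lists and 308.5 when 1 bp of overlap with a peak was enough. In single libraries the values ran from 8 to 9 open regulators, 94.3 to 95.0 in median percentile, 64.1 to 66.6% of all genes, 61 to 63 partner genes, 94 to 102 distal peaks and 250 to 304 footprints (mean 277). Read depth is unknown, so a missing peak is not shown to be closed chromatin.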
